A study of Rattus norvegicus with 24 samples.

Results

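TFMPP (trifluoromethylphenylpiperazine) is a synthetic phenylpiperazine taken as a designer drug and known as a serotonin receptor agonist. The data described here compare 3 samples of primary rat hepatocytes given 35 µM TFMPP for 24 h with the 3 samples given 0.1 percent DMSO for 24 h whose titles name them as controls. These 6 samples, chosen by their labels, are 6 of the 24 in the study. The other 18 hold BZP, MeOPP and MDBP, at 625, 522 and 467 µM, with 3 treated samples and 3 named DMSO controls for each drug. The labels state that every drug was used at its EC20, so the doses were set by effect and differ between drugs. All cells were kept in collagen sandwich culture, in which hepatocytes lie between layers of matrix. RNA was hybridised to an Affymetrix rat expression array, and values are log2 expression after RMA, a method that corrects background, equalises the distribution over arrays and summarises the probes of a probe set. Strain, sex and age are not given in the labels, nor whether each replicate had its own animal or culture. The p-values therefore reflect only how much the 24 samples vary, and that variation could be technical.

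Hepatocytes make cholesterol from acetyl-CoA in a long chain of enzymes whose genes are switched on together by the transcription factor SREBP-2, which is released when sterols in the endoplasmic reticulum run low. SREBP-1 does the same for fatty acid synthesis and desaturation. The same cells turn cholesterol into bile acids, take bile acids up from blood and pump them into canaliculi, oxidise fatty acids under the receptor PPAR alpha, break down amino acids and clear drugs through cytochromes P450. In culture these adult functions are gradually lost as cells dedifferentiate.

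The arrays looked alike in level, with medians of 4.459 to 4.508 over the 6 arrays. The cells carried hepatocyte markers, whose mean over 15 genes was 11.52 to 11.98 with TFMPP and 11.77 to 12.14 in DMSO. Albumin (Alb) stood at 14.07, 14.05 and 14.05 with TFMPP, against 14.10, 14.07 and 14.07 in DMSO. For markers of other liver cells the means were 4.96 to 6.13 with TFMPP and 5.02 to 6.35 in DMSO for Kupffer cells and leukocytes (15 genes), 4.62 to 5.40 and 4.70 to 5.46 for stellate cells and fibroblasts (16 genes), 4.86 to 5.89 and 4.81 to 6.01 for sinusoidal endothelium (12 genes), and 4.41 to 4.50 and 4.41 to 4.42 for cholangiocytes (9 genes). RMA values have no zero, so absence of a marker cannot be read from them. As a measure of RNA integrity, the 3' minus 5' log2 signal of the beta-actin control probes was 2.961, 2.095 and 2.442 with TFMPP, against 2.339, 2.064 and 2.194 in DMSO. It was higher with TFMPP in all 3 pairs, most in pair 1. That of GAPDH was 0.488, 0.218 and 0.314 with TFMPP, against 0.344, 0.212 and 0.289 in DMSO, and that of hexokinase 1.119, 1.139 and 1.214 with TFMPP, against 1.035, 1.071 and 1.259 in DMSO. The GAPDH gap was small in pairs 2 and 3, and hexokinase was lower with TFMPP in pair 3. The part of RNA integrity in the results was not tested. DMSO arrays of the study were grouped by correlation into 5 sets (0.9943 to 0.9971 within, 0.9622 to 0.9919 between). The number 5 was a setting of the clustering and not a result. The 3 TFMPP pairs lay in 3 different sets, which the labels do not name.

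TFMPP raised genes of sterol synthesis and a few lysosomal signalling genes, and lowered a larger number of genes of bile acid, amino acid, glucose, fatty acid and drug metabolism. A change is called here where the limma p, adjusted over all probe sets by Benjamini and Hochberg, was under 0.05. This held for 551 of 31042 probe sets (1.78%). Of these 173 were higher and 378 lower, and 21 and 54 of them changed at least 2-fold. At an unadjusted p under 0.05 there were 3600. Taking for each gene its probe set with the highest mean, 124 of 14217 genes rose (0.872%) and 243 fell (1.71%). All of them moved in the same direction in all 3 pairs, as did 37.3% of all probe sets. Calls rest on the mean of the same pairs, so this agreement is not added support. The median change over all probe sets used for genes was 0.013. The model compares each TFMPP array with its own control. Without the pair terms the replicate spread in level entered the error and 1 probe set was called, that of Gpnmb (adjusted p = 0.0109). Leaving out pair 1, 2 or 3 gave 139, 199 or 166 called probe sets, and 86 were called in all of these. Which calls were lost is given with each group. The counts of every gene list below are to be set beside the shares of all genes, 0.872% rising and 1.71% falling.

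**Figure D1:**
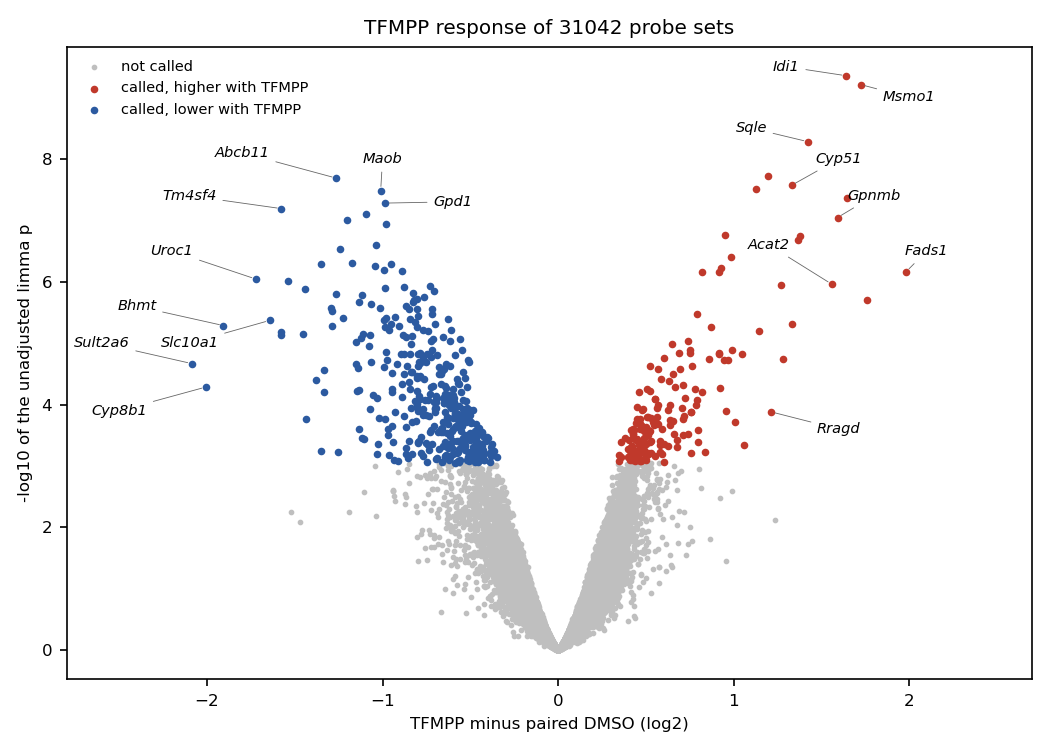
Change of 31042 probe sets with TFMPP relative to paired DMSO (x axis, log2) against -log10 of the unadjusted limma p (y axis). Each point is a probe set; the 173 called higher are red, the 378 called lower are blue, and Idi1, Msmo1 and Sqle stand highest on the right.

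Cholesterol synthesis had the highest median of the 39 gene lists described here. Of 18 measured enzymes 11 rose and 0 fell, against 0.872% of all genes rising, and the list median was 0.78 against 0.013 over all genes. The 11 span the pathway from acetoacetyl-CoA to the last sterol steps. The list was known from earlier results of these data to respond, so its count is not independent evidence. Msmo1, the oxidase that removes methyl groups from the sterol ring, had values of 10.12, 11.05 and 11.00 with TFMPP in pairs 1 to 3, against 8.56, 9.02 and 9.41 in DMSO. The groups did not overlap, and the rise in log2 level was 1.72 ± 0.13 (3.30-fold, adjusted p = 9.6e-06 in limma, n = 3 pairs). The error, as throughout, is the SE of the model. Its spread is estimated over all 12 pairs of the study, so it is not the scatter of the 3 TFMPP pairs alone. Idi1, the isomerase that makes the building block of all isoprenoids, had 9.60, 10.84 and 10.19 with TFMPP and 8.00, 8.93 and 8.78 in DMSO. Pair 1 was lowest in both groups, yet its change lay between those of pairs 2 and 3, and the rise was 1.64 ± 0.12 (3.12-fold; adjusted p = 9.6e-06).

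Squalene epoxidase (Sqle), a rate-limiting step after squalene, reached 8.41, 9.70 and 9.20 with TFMPP, against 7.17, 7.99 and 7.89 in DMSO (rise 1.42 ± 0.12; adjusted p = 5.45e-05). Lanosterol demethylase (Cyp51) reached 10.85, 11.39 and 11.26 with TFMPP, against 9.90, 9.74 and 9.86 in DMSO (1.33 ± 0.13; adjusted p = 0.000128). In both genes all TFMPP samples lay above all DMSO samples. Acat2, the cytosolic thiolase at the entry of the pathway, had 7.01, 7.94 and 7.72 with TFMPP and 5.68, 6.14 and 6.16 in DMSO, a rise of 1.56 ± 0.20 (adjusted p = 0.00099). Fdps, which makes farnesyl diphosphate, rose by 1.13 ± 0.11 (2.18-fold). Fdft1, which joins farnesyl units into squalene, rose by 1.28 ± 0.21 (2.43-fold), with changes of 0.64, 1.64 and 1.56 in pairs 1 to 3. Over the whole list the median change was smallest in pair 1, at 0.47, with 1.09 and 0.84 in pairs 2 and 3.

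The other called members were Hsd17b7 (0.82 ± 0.15), Lss, the cyclase that closes the sterol rings (0.80 ± 0.18), Tm7sf2, a sterol reductase (0.76 ± 0.15), and Sc5d, a late desaturase (0.52 ± 0.11). Of the 7 members without a call, 6 lay between 0.37 and 0.63: Ebp, Pmvk, Mvk, Nsdhl, Mvd and Dhcr7. Dhcr7, the last reductase, changed by 0.09, 1.20 and 0.61 in the 3 pairs, a wide spread (adjusted p = 0.334 in limma). Ggps1, which leads to a branch away from sterols, stood at 0.06 ± 0.15. The calls of Msmo1, Idi1, Sqle, Cyp51, Acat2 and Fdps remained without any one pair. Those of Fdft1, Hsd17b7, Lss, Tm7sf2 and Sc5d were lost without pair 2 (adjusted p from 0.0756 for Fdft1 to 0.284 for Sc5d) and without pair 3 (0.0809 for Fdft1 and Hsd17b7 to 0.336 for Lss), and that of Tm7sf2 also without pair 1 (0.0546).

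**Figure D2:**
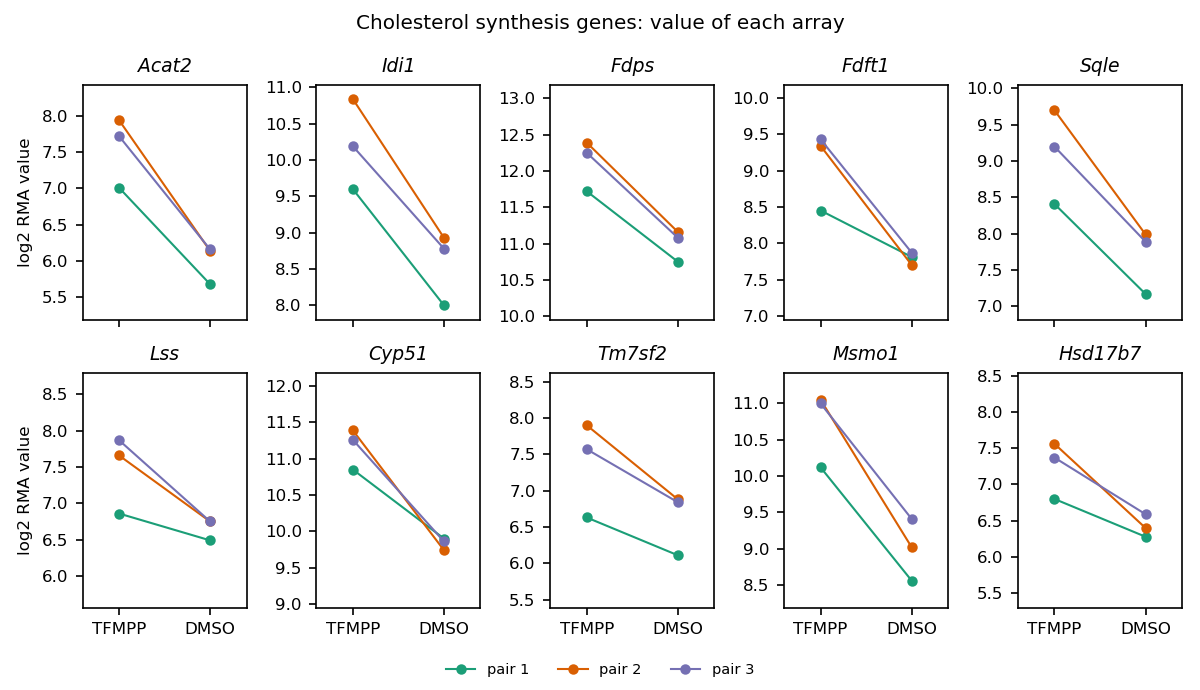
Log2 RMA values of 10 cholesterol synthesis genes in the 3 TFMPP samples (left in each panel) and their paired DMSO samples (right), with a line and a colour per pair and the same log2 span in every panel. All lines run higher on the TFMPP side, and the pair 1 line of Fdft1 spans 0.64 against 1.64 and 1.56 in pairs 2 and 3.

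Promoters of 3 of these genes are shown because sterol genes are classically switched on through SREBP sites that work with nearby CCAAT boxes, bound by the factor NF-Y. The sequences are RefSeq promoters on GRCr8, 250 bases before to 50 after the start, with the CCAAT box (the letters CCAAT, whose match on the opposite strand appears here as ATTGG) in capitals. The Msmo1 promoter lies at chr16:29746863-29747162 (plus strand), with boxes beginning 173, 109 and 68 bases upstream of the start. That of Idi1 lies at chr17:66547475-66547774 (minus strand), with boxes 66 and 35 bases upstream, and that of Fdps at chr2:176804767-176805066 (minus strand), with boxes 130 and 85 bases upstream.
Msmo1: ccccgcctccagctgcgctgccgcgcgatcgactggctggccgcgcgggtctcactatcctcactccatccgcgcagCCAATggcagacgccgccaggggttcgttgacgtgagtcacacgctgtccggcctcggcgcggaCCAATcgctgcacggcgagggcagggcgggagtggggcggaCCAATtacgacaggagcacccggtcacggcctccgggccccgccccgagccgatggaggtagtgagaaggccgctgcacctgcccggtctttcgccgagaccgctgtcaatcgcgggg
Idi1: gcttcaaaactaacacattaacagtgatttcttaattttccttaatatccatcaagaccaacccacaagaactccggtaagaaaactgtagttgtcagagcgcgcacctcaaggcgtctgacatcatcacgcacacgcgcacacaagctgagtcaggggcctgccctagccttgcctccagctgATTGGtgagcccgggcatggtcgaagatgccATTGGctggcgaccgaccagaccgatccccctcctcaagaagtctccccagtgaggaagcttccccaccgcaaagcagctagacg
Fdps: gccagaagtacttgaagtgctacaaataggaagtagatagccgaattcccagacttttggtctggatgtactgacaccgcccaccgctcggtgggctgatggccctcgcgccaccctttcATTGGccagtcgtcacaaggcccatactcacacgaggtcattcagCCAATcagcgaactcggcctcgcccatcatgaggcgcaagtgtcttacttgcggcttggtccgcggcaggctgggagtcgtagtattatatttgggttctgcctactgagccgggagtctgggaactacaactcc
Of the 11 called enzymes 9 had a RefSeq promoter, and 7 of these held CCAAT on either strand, against 37.7% of 27457 promoters of the same length. Among all called genes with a promoter, the share was 43.8% of those higher and 39.8% of those lower. The sterol response element, searched on both strands as TCACNCCAC, was in 0 of the 9 and in 1.13% of all promoters, and the shorter TCACNCCA in Msmo1 alone of the 9 and in 3.91% of all. These are letter matches in 300 bases, not sites, and a missing match says only that the letters are not in this window.

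Genes that control or move sterols rose less. Of 11 measured members 4 rose and 0 fell (list median 0.32), and the calls of 3 of them were lost without each pair in turn. Insig1, which holds SREBP in the endoplasmic reticulum and is itself an SREBP target, had 11.38, 11.54 and 11.78 with TFMPP, against 10.64, 10.67 and 11.23 in DMSO (0.72 ± 0.14; adjusted p = 0.0116). Srebf1, which encodes SREBP-1, had 8.08, 7.89 and 8.05 with TFMPP and 7.42, 7.17 and 7.56 in DMSO (0.63 ± 0.12; adjusted p = 0.015). Neither overlapped between groups. Srebf2, which encodes SREBP-2, had 7.00, 7.42 and 7.46 with TFMPP and 6.71, 6.71 and 7.02 in DMSO, which did not pass (0.48 ± 0.15; adjusted p = 0.141). Stard4, a carrier of cholesterol between membranes, rose by 0.86 ± 0.14 and Npc2, which hands cholesterol out of lysosomes, by 0.45 ± 0.09. Without a single pair the adjusted p reached 0.136 for Insig1, 0.148 for Srebf1, 0.125 for Npc2 and 0.0716 for Stard4, and Stard4 alone kept its call without pair 1 (0.0252).

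Among 13 genes of the LXR response and sterol efflux, 1 rose and 1 fell, with 6 members above 0 and 7 below. Of all genes 0.872% rose and 1.71% fell. Soat1, which esterifies cholesterol for storage, rose by 0.92 ± 0.17, with 8.07, 9.41 and 8.68 with TFMPP against 7.56, 8.00 and 7.85 in DMSO (adjusted p = 0.00908). Lcat, which esterifies cholesterol in plasma lipoproteins, fell by 0.77 ± 0.14. The efflux pump gene Abca1, an LXR target, stood at 0.35 (adjusted p = 0.252). Soat1 lost its call without pair 2 (0.145) or 3 (0.0666), and Lcat without pair 1 (0.108) or 2 (0.115).

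In fatty acid synthesis and desaturation 3 of 18 genes rose and 0 fell (median 0.25). Fads1, the delta-5 desaturase that makes arachidonic acid, showed the largest rise of any called gene. It had 6.65, 5.80 and 6.81 with TFMPP, against 4.79, 3.76 and 4.76 in DMSO, with no overlap. The rise was 1.98 ± 0.25 (3.95-fold; adjusted p = 0.000708), with changes of 1.86, 2.04 and 2.05 in the pairs, and it was called without any one pair. Fasn, the fatty acid synthase, had 7.79, 8.17 and 8.64 with TFMPP and 7.05, 6.81 and 7.55 in DMSO (1.06 ± 0.24; adjusted p = 0.0327). Acsl3, an acyl-CoA synthetase of lipid droplets, rose by 0.79 ± 0.17. Other enzymes of the same route were not called: Fads2 stood at 0.39 (adjusted p = 0.0581), Scd at 0.28, Acly at 0.08 and Acaca at -0.28. The call of Fasn was lost without pair 1, 2 or 3 (adjusted p = 0.0992, 0.267 and 0.223), and that of Acsl3 without pair 1 (0.161) or 2 (0.283).

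Of 18 triglyceride and lipid droplet genes 1 rose and 3 fell (median -0.16). Plin3, a droplet coat protein, rose by 0.51 ± 0.11. Cidec, which fuses droplets, fell by 0.80 ± 0.16, with 7.34, 7.19 and 8.16 with TFMPP and 8.28, 8.00 and 8.83 in DMSO. G0s2, an inhibitor of triglyceride lipase, fell by 0.70 ± 0.13, and Lpin2, a phosphatidate phosphatase, by 0.62 ± 0.15. Each of these calls was lost without at least 1 pair (adjusted p up to 0.216 for Plin3, 0.143 for Cidec, 0.219 for G0s2 and 0.340 for Lpin2).

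Fatty acid oxidation fell. Of 26 measured genes of beta-oxidation and the PPAR alpha response 0 rose and 9 fell, against 1.71% of all genes falling, and the median of -0.53 was the lowest of the 39 lists. Cyp4a3, a fatty acid omega-hydroxylase and classical PPAR alpha target, had 8.37, 8.70 and 9.34 with TFMPP, against 9.97, 9.48 and 10.20 in DMSO. It fell by 1.08 ± 0.17 (2.11-fold lower; adjusted p = 0.00336), with no overlap between groups. Vnn1, a pantetheinase and PPAR alpha target, fell by 1.14 ± 0.16. Along the mitochondrial spiral Hadh fell by 1.06 ± 0.18, Acaa2 by 0.83 ± 0.11, Decr1 by 0.80 ± 0.11, Hadha by 0.70 ± 0.17, Acadm by 0.65 ± 0.11, Slc25a20 by 0.57 ± 0.10 and Acadvl by 0.48 ± 0.10. Cpt1a, the gate of the carnitine shuttle, stood at -0.10 ± 0.13 (adjusted p = 0.896), with 9.94, 9.94 and 9.84 with TFMPP and 10.21, 10.08 and 9.73 in DMSO. The receptor gene Ppara stood at -0.09 ± 0.12. The calls of Vnn1, Acaa2 and Decr1 remained without any one pair, and the other 6 were lost without pair 1 (adjusted p from 0.0557 for Acadm to 0.399 for Hadha). Over the list 8 genes were called without pair 2 and 5 without pair 3.

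Peroxisomes carry out the oxidation of very long and branched chains and of several amino and hydroxy acids. Of 26 peroxisomal genes 0 rose and 8 fell (median -0.29). Dao, the D-amino acid oxidase, fell by 1.38 ± 0.24 (2.60-fold lower), with 4.31, 4.46 and 5.35 with TFMPP and 5.61, 6.06 and 6.58 in DMSO. Uox, the urate oxidase, fell by 0.96 ± 0.14, Pecr by 0.76 ± 0.10, Phyh by 0.62 ± 0.12 and Crot by 0.61 ± 0.14. The other 3 are Acox2, Hsd17b4 and Agxt, which also belong to the bile acid or amino acid list. Pecr kept its call without any one pair. Dao lost it without pair 1, 2 or 3 (0.0636, 0.0903 and 0.0547), Uox without pair 1 (0.0532), Phyh without pair 1 (0.136) or 3 (0.168) and Crot without each (up to 0.327).

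Genes of bile acid uptake, synthesis and export fell. Of 24 measured members 0 rose and 7 fell (median -0.46). Slc10a1 (NTCP), the sodium-driven carrier that takes bile acids up from blood, had 8.21, 9.11 and 6.49 with TFMPP, against 9.88, 10.60 and 8.25 in DMSO. The groups overlapped, because pair 3 was low in both, but the change was alike in the pairs, at -1.68, -1.49 and -1.77. The fall was 1.64 ± 0.24 (3.12-fold lower; adjusted p = 0.00198). Abcb11 (BSEP), the pump that exports bile acids into the canaliculus, had 6.80, 8.59 and 7.15 with TFMPP and 8.45, 9.49 and 8.39 in DMSO, a fall of 1.26 ± 0.12 (2.40-fold lower; adjusted p = 0.000128). Both were called without any one pair.

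Cyp8b1, the sterol 12-alpha-hydroxylase that directs synthesis to cholic acid, had 5.43, 5.98 and 5.67 with TFMPP, against 6.95, 8.33 and 7.81 in DMSO. All TFMPP samples lay below all DMSO samples, and the fall was 2.01 ± 0.36 (4.02-fold lower; adjusted p = 0.00888). Without pair 2 or 3 its adjusted p was 0.104 or 0.101. Cyp7a1, the rate-limiting enzyme of the classical route, had 5.36, 4.12 and 4.12 with TFMPP and 5.73, 4.93 and 4.67 in DMSO, which did not pass (-0.57 ± 0.32; adjusted p = 0.547). Acox2, which shortens the bile acid side chain, fell by 1.15 ± 0.18 and Slco1a4, which takes up organic anions, by 1.02 ± 0.21. Hsd17b4 fell by 0.52 ± 0.10 and Nr1h4, which encodes the bile acid receptor FXR, by 0.45 ± 0.09. The 4 calls were lost without pair 1 (adjusted p = 0.0513 for Acox2, 0.158 for Slco1a4, 0.221 for Hsd17b4 and 0.292 for Nr1h4). Over the bile acid list 5 genes were called without pair 2 and 4 without pair 3. The multidrug exporters Abcc2 and Abcc4 lay on the other side of 0, at 0.52 (adjusted p = 0.0523) and 0.51 (adjusted p = 0.0743). The phospholipid flippase Abcb4 stood at -0.46 ± 0.19 (adjusted p = 0.336).

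**Figure D3:**
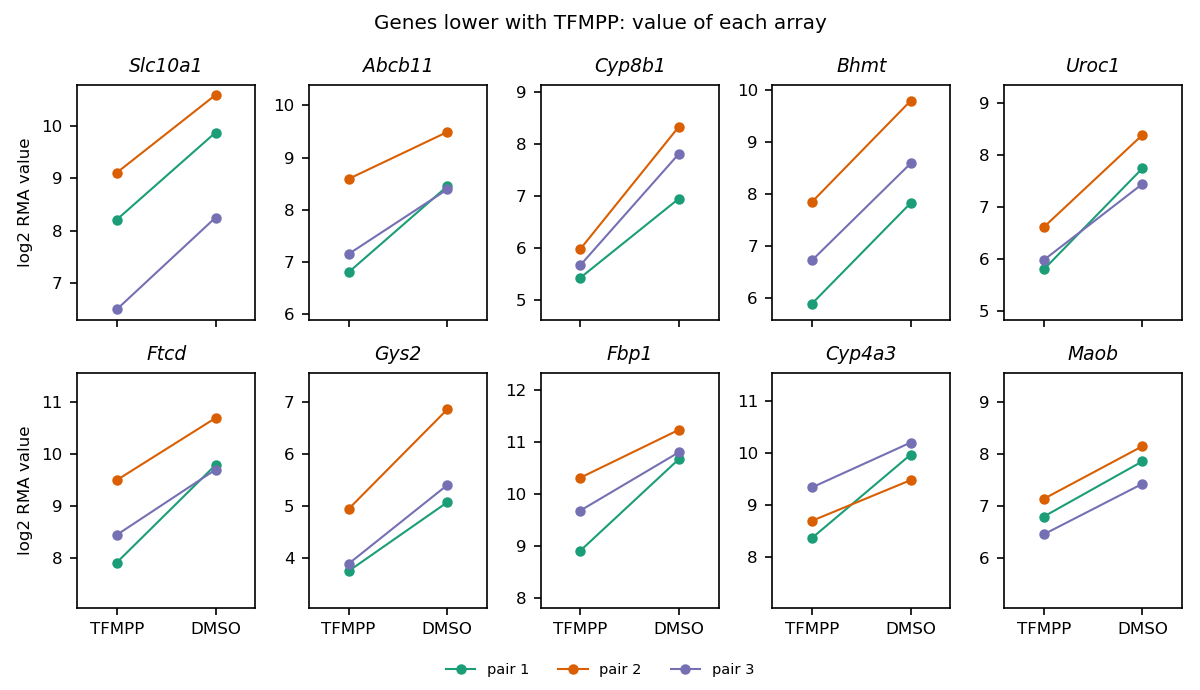
Log2 RMA values of 10 genes of bile acid, amino acid, glucose, fatty acid and amine metabolism in the 3 TFMPP samples (left in each panel) and their paired DMSO samples (right), with a line and a colour per pair and the same log2 span in every panel. All lines run lower on the TFMPP side; in Slc10a1, Abcb11 and Bhmt the levels of the pairs differ enough that the groups overlap.

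Amino acid breakdown held the largest number of falls. Of 37 measured genes of amino acid breakdown and the urea cycle 0 rose and 15 fell (median -0.46), and 36 lay below 0. Bhmt, which remethylates homocysteine with betaine, had 5.90, 7.85 and 6.73 with TFMPP, against 7.83, 9.79 and 8.59 in DMSO. The fall was 1.91 ± 0.28 (3.75-fold lower; adjusted p = 0.00223). In histidine breakdown, Uroc1 (urocanate hydratase) had 5.80, 6.61 and 5.98 with TFMPP and 7.74, 8.38 and 7.44 in DMSO, a fall of 1.72 ± 0.22 (3.30-fold lower; adjusted p = 0.000878) with no overlap. Ftcd, further down the same route, had 7.92, 9.50 and 8.45 with TFMPP and 9.79, 10.69 and 9.70 in DMSO (-1.44 ± 0.19; adjusted p = 0.00105). Hal, which opens the route, fell by 0.63 ± 0.15.

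In lysine and tryptophan breakdown Aass fell by 1.29 ± 0.19, Kynu by 1.24 ± 0.15 and Haao by 0.80 ± 0.13. In tyrosine breakdown Hgd fell by 0.65 ± 0.11 and Fah by 0.55 ± 0.12. Both glyoxylate aminotransferases fell, Agxt2 by 1.17 ± 0.14 and Agxt by 0.80 ± 0.15. Gnmt, which consumes methyl groups from S-adenosylmethionine, fell by 0.66 ± 0.14, Gldc of glycine cleavage by 0.50 ± 0.10, Hibch of valine breakdown by 0.48 ± 0.11 and Cth, which makes cysteine, by 0.47 ± 0.12. Bhmt, Uroc1, Ftcd, Aass, Kynu and Agxt2 were called without any one pair. The other 9 were lost without pair 1 (adjusted p from 0.0501 for Hgd to 0.488 for Hal). Over the amino acid list 7 genes were called without pair 2 and 9 without pair 3.

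Of 23 genes of glucose and glycogen metabolism 0 rose and 5 fell (median -0.36). Gys2, the liver glycogen synthase, had 3.75, 4.94 and 3.89 with TFMPP, against 5.07, 6.85 and 5.40 in DMSO (-1.58 ± 0.24; 2.99-fold lower; adjusted p = 0.00259). Fbp1, the fructose bisphosphatase of gluconeogenesis, had 8.91, 10.31 and 9.68 with TFMPP and 10.67, 11.23 and 10.80 in DMSO (-1.26 ± 0.17; 2.40-fold lower; adjusted p = 0.00119). In both the groups stood apart. Slc37a4, which carries glucose 6-phosphate into the endoplasmic reticulum, fell by 1.04 ± 0.12, pyruvate carboxylase (Pc) by 0.73 ± 0.17 and liver glycogen phosphorylase (Pygl) by 0.60 ± 0.11. The calls of Gys2, Fbp1 and Slc37a4 remained without any one pair, while those of Pc (adjusted p up to 0.257) and Pygl (up to 0.154) were lost without each pair.

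Drug-metabolising enzymes fell in each class apart from the targets of the aryl hydrocarbon receptor (AHR). Of 20 constitutive cytochromes P450 0 rose and 7 fell (median -0.44). Cyp2a2 had 8.91, 8.92 and 8.75 with TFMPP, against 9.73, 9.69 and 9.35 in DMSO, a fall of 0.73 ± 0.10 (adjusted p = 0.00101) that was called without any one pair. Cyp2c11, the main male-specific P450 of rat liver, had 5.66, 8.27 and 8.59 with TFMPP and 6.81, 9.68 and 8.85 in DMSO. Its levels ranged widely between pairs in both groups, and it fell by 0.94 ± 0.21 (adjusted p = 0.0305). Cyp4f4 fell by 1.12 ± 0.25, Cyp2a1 by 1.03 ± 0.19, Cyp2d4 by 0.75 ± 0.13, Cyp2d3 by 0.64 ± 0.15 and Cyp4f1 by 0.55 ± 0.09. Members of these families are close in sequence, and probe sets may not separate them. Without a single pair the adjusted p reached 0.326 for Cyp4f4, 0.140 for Cyp2a1, 0.311 for Cyp2c11, 0.0726 for Cyp2d4, 0.364 for Cyp2d3 and 0.0636 for Cyp4f1.

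Of 15 measured genes listed for the drug sensors CAR and PXR 0 rose and 5 fell (median -0.51). Cyp2b1, Cyp2b2, Cyp3a62, Abcb1b, Aldh1a7 and Gsta2 of this list had no probe set of their own. The counts therefore leave them out. Cyp3a23-3a1, the classical PXR target of rat liver, had 11.21, 10.84 and 10.86 with TFMPP, against 11.87, 12.26 and 11.88 in DMSO, with no overlap (-1.03 ± 0.24; 2.05-fold lower; adjusted p = 0.0402). Cyp3a18 fell by 1.07 ± 0.21, Aldh1a1 by 0.99 ± 0.14, Cyp2b3 by 0.78 ± 0.17 and Nr1i2, the gene of PXR itself, by 0.51 ± 0.10. Aldh1a1 was called without any one pair. For the others the adjusted p without a pair reached 0.323 (Cyp3a23-3a1), 0.202 (Cyp3a18), 0.298 (Cyp2b3) and 0.205 (Nr1i2).

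Among 27 conjugating enzymes 0 rose and 6 fell (median -0.35). Sult2a6, a sulfotransferase of bile acids and steroids, showed the largest fall of any called gene, with 4.98, 3.97 and 3.06 with TFMPP against 6.69, 6.67 and 4.92 in DMSO. It fell by 2.09 ± 0.35 (4.25-fold lower; adjusted p = 0.00492). Gsta3 fell by 0.97 ± 0.21, Sult1a1 by 0.88 ± 0.14, Gstm2 by 0.83 ± 0.14, the nicotinamide methyltransferase Nnmt by 0.79 ± 0.13 and Gstm3 by 0.54 ± 0.11. All 6 calls were lost without at least 1 pair, that of Sult2a6 without pair 2 (0.0821).

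Of 9 AHR targets 1 rose, Nqo1, the quinone reductase, which is also an NRF2 target. Nqo1 had 9.62, 9.91 and 9.29 with TFMPP, against 8.70, 9.35 and 8.50 in DMSO (0.75 ± 0.12; 1.69-fold; adjusted p = 0.00403). Its call was lost without pair 1 (0.0716) or 3 (0.0526). Cyp1a1, the most inducible AHR target, had 10.02, 10.71 and 9.94 with TFMPP and 8.10, 9.47 and 9.38 in DMSO. The groups did not overlap and the changes were 1.91, 1.24 and 0.56, but the mean of 1.24 ± 0.40 did not pass (adjusted p = 0.173 in limma). Pairs of the other drugs enter the same error. Their changes were 2.31, 0.84 and -0.58 with BZP, 2.01, 0.69 and 0.72 with MeOPP and 2.3, 1.07 and 0.91 with MDBP. Cyp1a2 stood at 0.15. Of 28 NRF2 and antioxidant genes Nqo1 alone was called (median 0.07), and Hmox1, the haem oxygenase, stood at -0.14 ± 0.16.

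Proteins that hepatocytes secrete fell in part. Of 23 plasma and lipoprotein genes 0 rose and 3 fell (median -0.15), all tied to lipoprotein assembly or composition. Mttp, which loads lipid onto apolipoprotein B, had 8.08, 8.54 and 7.83 with TFMPP, against 9.25, 9.45 and 8.96 in DMSO (-1.07 ± 0.16; 2.10-fold lower; adjusted p = 0.00259), and was called without any one pair. Apob fell by 0.71 ± 0.11 and Apoc2 by 0.80 ± 0.18. Of 29 complement and coagulation genes 0 rose and 5 fell, and all 29 lay below 0 (median -0.28). These were Mbl2 (-0.99 ± 0.20), C5 (-0.67 ± 0.14), C8a (-0.63 ± 0.13), F10 (-0.54 ± 0.11) and Serpinf2 (-0.46 ± 0.11). Without pair 1 all 5 calls were lost (adjusted p from 0.0841 to 0.328). Without pair 3 no complement and coagulation gene was called either, and without pair 2 only 1 was. Apob lost its call without pair 3 (0.0646) and Apoc2 without each pair (up to 0.243). In bulk RNA, fewer cells of a type and less RNA per cell cannot be told apart.

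Some lists held few calls, beside 0.872% of all genes rising and 1.71% falling, and a single call describes the gene and not its list. Of 32 acute phase and iron genes 1 rose, Il6r, the interleukin 6 receptor (0.51 ± 0.12). Of 20 genes of the growth hormone and IGF axis 1 rose, the insulin receptor substrate Irs2 (0.59 ± 0.14). Both calls were lost without each pair (adjusted p up to 0.262 and 0.298). Among 22 hepatocyte transcription factors 0 rose and 3 fell: Hlf, a clock-controlled factor (-0.56 ± 0.12), Nr1i2 and Nr1h4. Hlf lost its call without each pair (up to 0.180). Of 15 hepatocyte markers 0 rose and 3 fell: Apob and the asialoglycoprotein receptor subunits Asgr1 (-0.85 ± 0.12) and Asgr2 (-0.59 ± 0.14). Asgr1 kept its call without any one pair and Asgr2 did not (up to 0.409). Among markers of other liver cells the 1 call was Rgs5, a stellate cell and pericyte gene (-0.75 ± 0.15), lost without each pair (up to 0.209).

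Lysosomal nutrient signalling rose at a few genes. In the list of V-ATPase subunits, Rag GTPases and the TFEB axis 5 of 29 rose and 0 fell (median 0.17). Gpnmb, a transmembrane glycoprotein of lysosomes and a target of TFEB-type factors, had 9.11, 8.61 and 8.76 with TFMPP, against 7.31, 6.93 and 7.46 in DMSO. The groups stood more than 1 log2 unit apart, and the rise was 1.59 ± 0.17 (3.01-fold; adjusted p = 0.000216). It was called without any one pair. Rragd, a GTPase that recruits mTORC1 to the lysosome and is also a TFEB-type target, had 5.51, 5.58 and 5.03 with TFMPP and 3.58, 4.49 and 4.40 in DMSO (1.21 ± 0.24; adjusted p = 0.0153). The changes of Rragd were 1.93, 1.09 and 0.63.

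Flcn, the folliculin that acts on RagC and RagD, rose by 0.71 ± 0.13, its partner Fnip2 by 0.49 ± 0.11 and Rragc by 0.49 ± 0.11. Tfeb stood at -0.08, Tfe3 at 0.30 and Mitf at 0.02, with no call. None of the V-ATPase subunits was called, the highest being Atp6v0b at 0.42 (adjusted p = 0.0903). Among 31 lysosomal hydrolases and membrane proteins 1 rose, Npc2, and 1 fell, the protease Ctsh (-0.48 ± 0.12), against 0.872% and 1.71% of all genes. Without a single pair the adjusted p reached 0.230 for Rragd, 0.116 for Flcn, 0.185 for Fnip2, 0.337 for Rragc and 0.367 for Ctsh. The E-box letters TCACGTG, of the type that TFEB binds, were in the promoters of 11.4% of called genes that rose, 5.34% of those that fell and 3.43% of all. They were in 0 of 3 promoters at hand among Gpnmb, Rragc, Rragd, Flcn and Fnip2.

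Stress responses were largely uncalled. Of 24 ER chaperone and unfolded protein genes 0 were called (median -0.26), and Hspa5 (BiP) had 12.47, 12.36 and 12.82 with TFMPP, against 12.94, 12.67 and 13.07 in DMSO (-0.34 ± 0.17; adjusted p = 0.457). Of 32 genes of ATF4 and the amino acid response 0 rose and 1 fell, Cth, with a median of 0.03. Asns, the asparagine synthetase and a classical ATF4 target, had 8.54, 7.91 and 8.82 with TFMPP and 8.25, 8.08 and 8.48 in DMSO, so the groups overlapped (0.16 ± 0.25; adjusted p = 0.922). Atf4 stood at 0.15 ± 0.14 and Ddit3 (CHOP) at -0.24 ± 0.22. Fgf21, a hormone induced by ATF4 and PPAR alpha, lay at -1.47 ± 0.48, a wide error that left it without a call (adjusted p = 0.179). None of 15 heat shock and metallothionein genes was called, and Hspa1a stood at -0.94 ± 0.26 (adjusted p = 0.0953).

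Of 21 p53 targets 3 rose and 0 fell (median 0.18). Cdkn1a (p21), which arrests the cell cycle, had 10.65, 10.04 and 10.52 with TFMPP, against 10.14, 9.81 and 10.00 in DMSO (0.42 ± 0.10; 1.34-fold; adjusted p = 0.0418). Mdm2, which degrades p53, rose by 0.51 ± 0.11 and Phlda3, an inhibitor of AKT, by 0.71 ± 0.14, while Gadd45a stood at -0.73 (adjusted p = 0.227). The 33 cell cycle and replication genes had a mean of 4.63 over the 6 arrays, and 13 reached a mean of 5 over the study. For the others a missing call says little. Of the 33 genes Mcm6, a helicase subunit, rose by 0.74 ± 0.12 and Cdkn3, a phosphatase, by 0.78 ± 0.14. Each of these calls was lost without at least 1 pair, with adjusted p up to 0.336 for Cdkn1a, 0.313 for Mdm2, 0.237 for Phlda3, 0.0591 for Mcm6 and 0.0942 for Cdkn3. No gene was called among 30 of oxidative phosphorylation (median -0.19), 21 ribosomal proteins (0.02), 30 proteasome subunits (-0.04), 19 aminoacyl-tRNA synthetases (0.03) or 30 of matrix and cytoskeleton (-0.05).

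TFMPP acts on serotonin receptors in the brain. Of 27 measured genes of serotonin, adrenergic and dopamine signalling 0 rose and 2 fell (median -0.06), against 1.71% of all genes falling. Both that fell are the monoamine oxidases, which break down serotonin and other amines on the outer mitochondrial membrane. Maob had 6.80, 7.14 and 6.46 with TFMPP, against 7.86, 8.15 and 7.43 in DMSO, with no overlap and changes within 0.10 of each other (-1.01 ± 0.10; 2.01-fold lower; adjusted p = 0.000128). It was called without any one pair. Maoa had 8.24, 8.78 and 7.99 with TFMPP and 8.79, 9.31 and 8.49 in DMSO (-0.53 ± 0.12; adjusted p = 0.0337), a call lost without each pair (up to 0.217). Both genes were also lower in every pair of the other drugs. Maob changed by -1.15, -1.6 and -1.4 with BZP, by -1.11, -1.2 and -0.93 with MeOPP and by -0.77, -1.08 and -0.98 with MDBP. Maoa changed by -0.46, -0.78 and -0.08 with BZP, by -0.76, -1.1 and -0.63 with MeOPP and by -0.42, -0.45 and -0.22 with MDBP. No serotonin receptor gene was called, Htr2b standing at -0.20 (adjusted p = 0.53). Signal was low for most of the list. Its mean was 3.93 over the 6 arrays, below the array medians, and 4 of the 27 genes reached a mean of 5 over the study. For the others a missing call does not show that expression was unchanged.

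**Figure D4:**
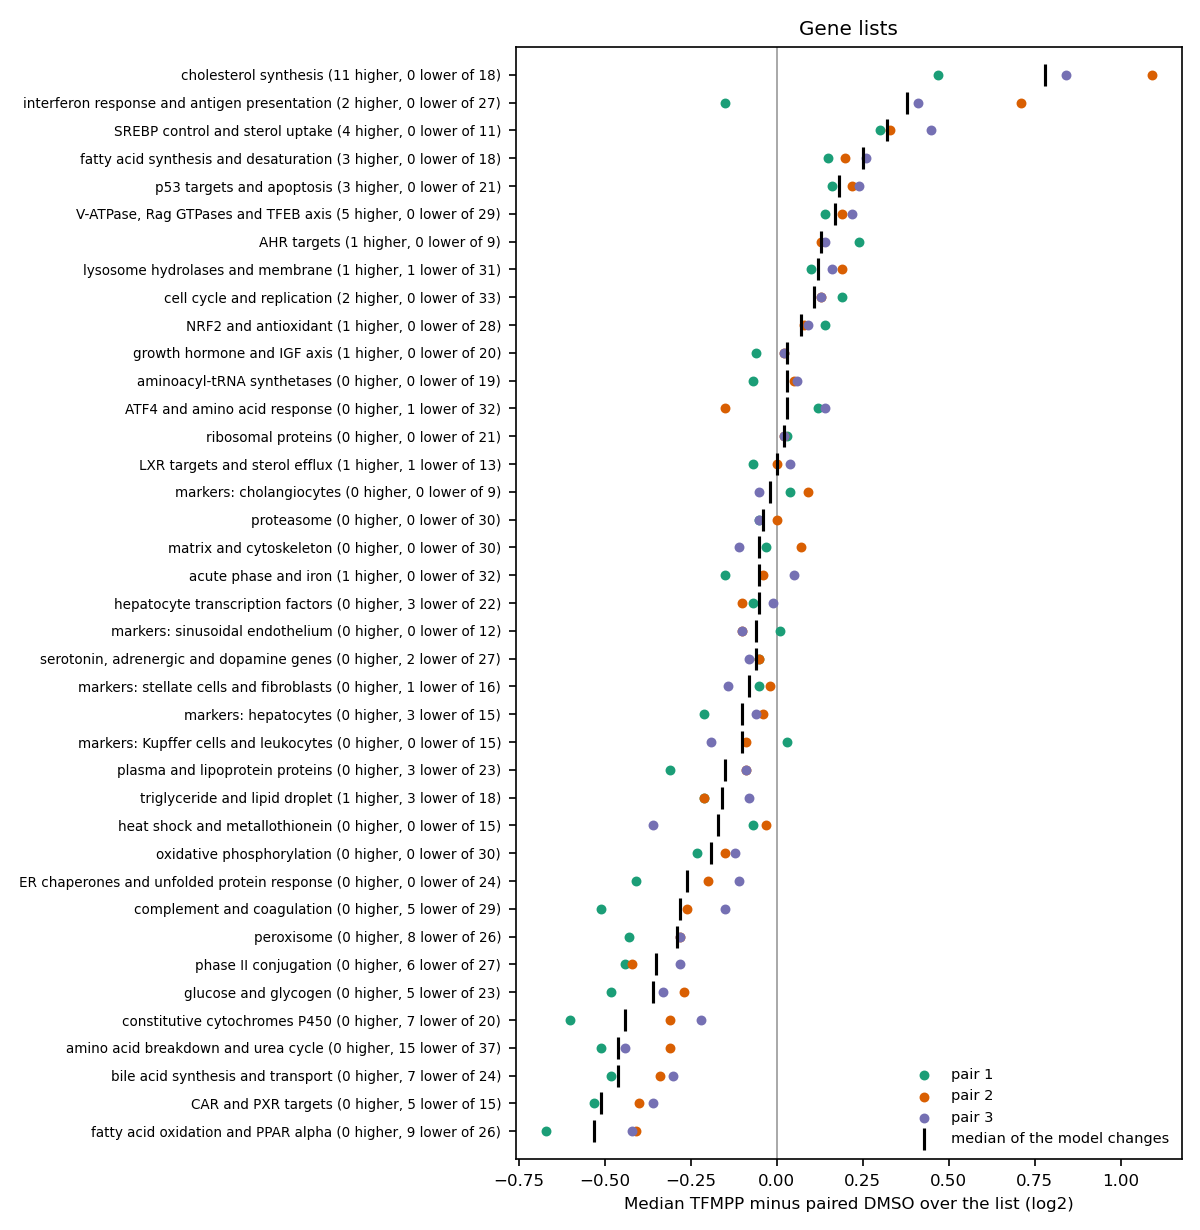
Median change with TFMPP relative to paired DMSO over each of the 39 gene lists (x axis, log2), with coloured points for pairs 1 to 3 and a black bar for the median of the model changes. Numbers of called genes stand beside each list name; cholesterol synthesis lies highest at 0.78 and fatty acid oxidation lowest at -0.53, and the interferon list spreads most between pairs.

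Interferon-response genes had the widest range of pair medians of the 39 lists. Of 27 measured 2 rose and 0 fell, against 0.872% of all genes rising. The list median was 0.38, with -0.15, 0.71 and 0.41 in pairs 1 to 3. Isg15, an interferon-induced ubiquitin-like protein, had 8.39, 10.73 and 9.65 with TFMPP, against 8.85, 8.99 and 8.65 in DMSO. Pair 1 lay below its control and pairs 2 and 3 lay above theirs, by -0.46, 1.75 and 1.01, and the mean of 0.77 ± 0.29 did not pass (adjusted p = 0.261). Irf7, Ifit3 and Rsad2 showed the same signs, with changes of -0.33, 1.68 and 0.91 in Irf7, of -0.04, 1.93 and 0.88 in Ifit3 and of -0.32, 1.92 and 1.27 in Rsad2. These 4 genes were chosen after their values were seen. The 2 called members were positive in every pair: Irf9, a subunit of the interferon-activated factor ISGF3, rose by 0.50 ± 0.11 and Tap1, the peptide transporter of antigen presentation, by 0.60 ± 0.14. Without pair 1 the list had 4 called members and a median of 0.57, without pair 2 or 3 it had 0 and medians of 0.18 and 0.27.

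Irf9 had 7.12, 7.74 and 7.65 with TFMPP, against 6.75, 7.24 and 7.02 in DMSO, and Tap1 had 7.49, 7.54 and 7.78 with TFMPP, against 7.29, 6.54 and 7.17 in DMSO. Irf9 lost its call without any single pair (adjusted p = 0.0811, 0.145 and 0.242), and Tap1 without pair 2 (0.356) or 3 (0.218). Interferon-inducible genes outside the list, chosen after their values were seen, rose as well: Apol9a by 0.74 ± 0.16, the GTPase Irgm by 0.68 ± 0.15 and Parp12 by 0.64 ± 0.13. Their calls remained without pair 1 (0.0252, 0.0252 and 0.0106) and were lost without pair 2 (0.251, 0.334 and 0.226) or 3 (0.268, 0.292 and 0.113). The Apol9a promoter is shown because it carries the interferon response core in 2 overlapping copies. It lies at chr7:111028164-111028463 (minus strand, RefSeq, GRCr8), with the copies beginning 71 and 65 bases upstream, and the capitals mark GAAANNGAA, here read on the other strand.
Apol9a: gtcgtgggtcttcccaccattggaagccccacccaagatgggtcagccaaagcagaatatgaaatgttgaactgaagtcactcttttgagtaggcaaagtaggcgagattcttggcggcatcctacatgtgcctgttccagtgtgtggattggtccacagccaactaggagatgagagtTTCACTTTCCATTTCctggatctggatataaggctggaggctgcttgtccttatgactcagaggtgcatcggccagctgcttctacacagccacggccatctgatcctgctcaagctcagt
The core was found on either strand in 4 of the 5 promoters of Irf9, Tap1, Apol9a, Irgm and Parp12, all but Irf9, against 9.5% of all promoters and 6.67% of those of called genes that rose. The 5 were picked as interferon genes, so the share describes them and tests nothing.

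TFMPP was set against the 3 other piperazines, whose doses differed. TFMPP and MeOPP are phenylpiperazines, differing in a trifluoromethyl against a methoxy substituent, whereas BZP and MDBP are benzylpiperazines. TFMPP had the fewest called probe sets, 551 (1.78%), against 2867 with BZP (9.24%), 1865 with MeOPP (6.01%) and 2167 with MDBP (6.98%). The median absolute log2 change was 0.0887 with TFMPP, and 0.1198, 0.1098 and 0.1151 with BZP, MeOPP and MDBP. The median standard error was 0.1117 for each drug by construction, because the drugs share the estimate of spread and have 3 pairs each. The test of the difference itself called 0 of 31042 probe sets (0%) between TFMPP and the mean of the other 3, with 2013 at an unadjusted p under 0.05 and a smallest adjusted p of 0.0669. Between TFMPP and MeOPP it also called 0, with 1721 at an unadjusted p under 0.05 and a smallest adjusted p of 0.6998. With the sets of DMSO arrays as a block in place of the pairs the counts were 451 (1.45%) and 302 (0.973%). The sets were formed from these same values and join controls of different drugs. Counts and p-values with the sets as a block, here and below, are therefore not independent support. A missing call does not show that the drugs act alike. Each drug had its own control arrays. Differences within a set of DMSO arrays are not repeats of one comparison: the set of TFMPP pair 1 also held pairs of BZP, MeOPP and MDBP, that of pair 2 pairs of BZP and MeOPP, and that of pair 3 a pair of MeOPP alone.

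Over the cholesterol synthesis list the median change was 0.78 with TFMPP, against 0.76, 0.57 and 0.66 with BZP, MeOPP and MDBP. Msmo1 rose by 1.72 with TFMPP, against 1.72, 1.45 and 1.49 with BZP, MeOPP and MDBP, a difference from their mean of 0.17 ± 0.15 (adjusted p = 0.901). Fads1 rose by 1.98 with TFMPP, against 2.49, 2.21 and 2.21, a difference of -0.32 ± 0.29 (adjusted p = 0.904). Gpnmb rose by 1.59 with TFMPP, against 2.68, 2.31 and 2.64 with BZP, MeOPP and MDBP. The difference of -0.95 ± 0.20 had an adjusted p of 0.196 with pair terms and of 0.000472 with the sets as a block, and within the sets of pairs 1, 2 and 3 it was -0.66, -0.96 and -0.43. Slc10a1 stood at -1.64 with TFMPP and at -2.86, -2.71 and -2.98 with BZP, MeOPP and MDBP (difference 1.21 ± 0.28; adjusted p = 0.257, and 0.000799 with the sets as a block). Within the sets its difference was 1.21, 1.89 and 0.31. Cpt1a stood at -0.10 with TFMPP and at -1.07, -0.53 and -0.84 with the others (difference 0.71 ± 0.15; adjusted p = 0.211, and 0.00385 with the sets as a block; within sets 0.34, 0.93 and 0.33). Asns stood at 0.16 with TFMPP and at 0.98, 0.65 and 1.16 with the others, and the ATF4 list had a median of 0.03 with TFMPP against 0.37, 0.15 and 0.47. The difference in Asns was -0.77 ± 0.29 (adjusted p = 0.647, and 0.154 with the sets as a block). Within the sets it was -0.23, -1.12 and 0.16, the last against MeOPP alone.

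**Figure D5:**
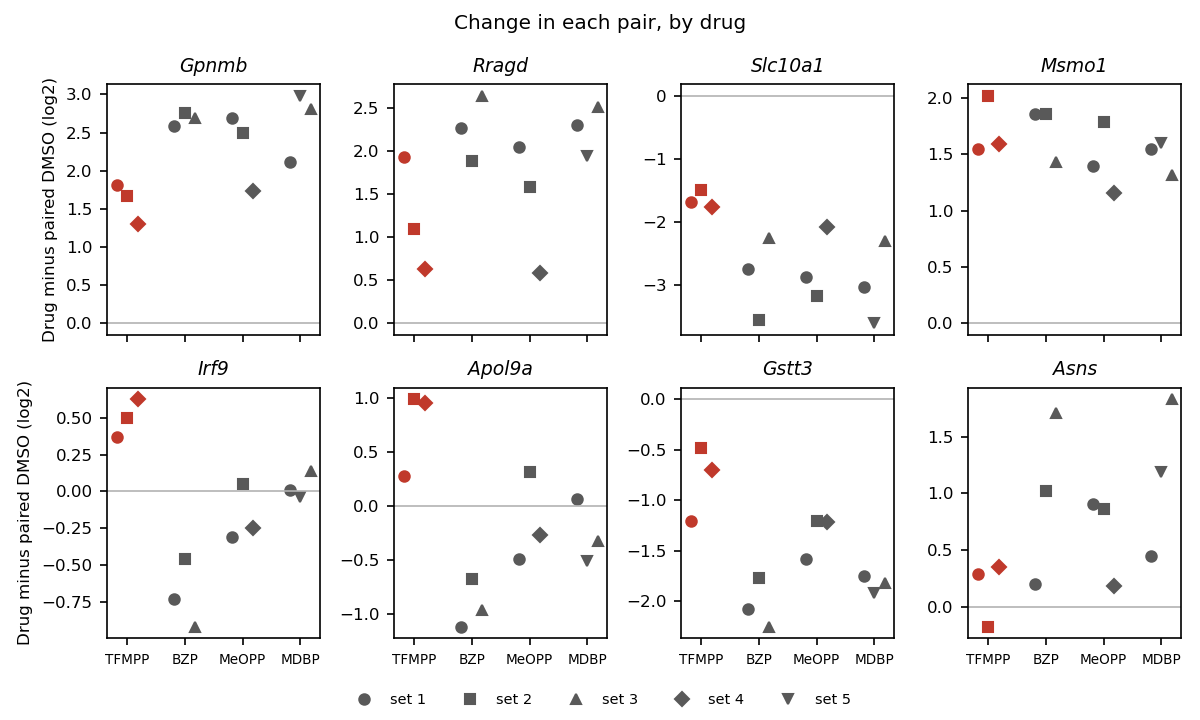
Change of 8 genes in each drug-control pair (y axis, drug minus paired DMSO, log2) for TFMPP (red) and BZP, MeOPP and MDBP (grey), with a marker shape for each set of correlated DMSO arrays. Gpnmb and Slc10a1 lie on average nearer to 0 with TFMPP, Msmo1 overlaps between drugs, and Irf9 is above 0 in all 3 TFMPP pairs and below 0 in all BZP pairs.

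The smallest p-values of the difference fell on interferon-response genes and a few others, named here after their values were seen. Irf9 changed by 0.50 with TFMPP, against -0.70, -0.17 and 0.03 with BZP, MeOPP and MDBP (difference 0.78 ± 0.12; adjusted p = 0.0669, and 0.000945 with the sets as a block; within sets 0.71, 0.71 and 0.89). Apol9a changed by 0.74 with TFMPP, against -0.92, -0.15 and -0.26 (difference 1.19 ± 0.19; adjusted p = 0.0669, and 0.000415 with the sets as a block; within sets 0.80, 1.18 and 1.22). For Oas1a, an antiviral oligoadenylate synthetase, the values were 0.50 with TFMPP and -1.31, -0.52 and -0.65 with the others, and for Irgm2 0.23 and -0.95, -0.57 and -0.64. The class I antigen gene RT1-S3 stood at 0.09 with TFMPP and at -1.38, -0.78 and -0.82 with the others. In these 5 genes the difference was positive within the 3 sets, against the drugs that each set held. Oas1a, Irgm2 and RT1-S3 also had an adjusted p of 0.0669 with pair terms and were called with the sets as a block. By contrast, Rsad2 and Ifit3 rose in every MeOPP and MDBP pair. Rsad2 changed by 0.78, 1.71 and 0.39 with MeOPP and by 0.45, 2.09 and 1.38 with MDBP. Ifit3 changed by 0.97, 1.11 and 0.12 with MeOPP and by 0.47, 1.4 and 1.09 with MDBP. The whole interferon list had a median of 0.38 with TFMPP, against -0.12, 0.08 and 0.03 with BZP, MeOPP and MDBP.

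Dnase2b, a lysosomal nuclease, went the other way, with -0.21 with TFMPP and 1.19, 0.54 and 0.83 with BZP, MeOPP and MDBP (difference -1.06 ± 0.15; adjusted p = 0.0669, and 1.79e-05 with the sets as a block; within sets -1.01, -1.13 and -0.76). Gstt3, a glutathione transferase, was lower by 0.80 with TFMPP, against -2.03, -1.34 and -1.83 (difference 0.94 ± 0.15; adjusted p = 0.0669, and 0.000597 with the sets as a block; within sets 0.59, 1.02 and 0.52). Plpp3, a lipid phosphatase, stood at -0.52 with TFMPP and at -1.25, -1.28 and -1.22 (difference 0.73 ± 0.12; adjusted p = 0.0751, and 0.000415 with the sets as a block). Leaving out TFMPP pair 1 gave 23 called probe sets for the difference, 22 of them higher with TFMPP, and leaving out pair 2 or 3 gave 0.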

How the data were processed

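The values are log2 expression values deposited by the authors, made with RMA per the submitters' processing notes (version not given in the sources used here). All 31042 non-control probe sets were fitted in limma 3.58.1 (R 4.3.3) over 24 arrays, with a term for each of 12 pairs and for each drug (8 residual and 7.66 prior degrees of freedom). Adjustment was by Benjamini-Hochberg across every tested probe set, and errors are standard errors from this fit. Pairs come from the sample titles; deviations of each TFMPP sample and its control from their group means correlated at 0.7595, 0.8016 and 0.7181. On simulated data 52 of 100 changes of 0.5 and 98 of 100 changes of 1 on the log2 scale were recovered for TFMPP. An exact sign-flip test of 3 pairs cannot go below p = 0.25. The platform annotation gave 1 symbol to 20826 probe sets, several to 436 and none to 9780; a gene is its probe set with the highest mean. Some genes of the fixed set of markers are not reported here. Named genes are the 15 largest called rises and falls, up to 5 called members per list, a fixed set of markers, and genes said to be chosen after their values were seen or needed for a missing call; some called list members beyond the 5 are also given. The members and the 39 lists (824 of 943 genes measured) were chosen with earlier results of these data known. Promoters are from RefSeq, GRCr8. Alternatives changed the pair terms, samples, filter, trend, normalization and pairs used.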

Additional observations from a re-analysis of the deposited data

How the results depend on the processing

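For the 147 named genes followed here, all called in the paired fit, the calls depend on the pairing of samples. All 147 kept their direction with a single DMSO control group, with the sets of DMSO arrays as a block and with quantile normalization repeated. In the other alternatives the direction could not change. There the estimate stayed the same, or a pair was left out of pairs that all had the same sign. With pair terms 551 probe sets were called for TFMPP, and without the replicate block 1; with all DMSO arrays as a single control group there were 20. The sets of DMSO arrays as a block in place of the pairs gave 1762 calls, of which 43.7% were higher, against 31.4% in the paired fit, and a fit to the 6 TFMPP and DMSO arrays alone gave 1092. Leaving out a pair gave 139 to 199 calls. For TFMPP minus the mean of the other drugs the count was 0, but 451 with the sets as a block, 11 with an intensity trend and 0 to 23 without a pair. For TFMPP minus MeOPP it was 0, but 302 with the sets as a block. Of the 147 genes, 45 were called without any one pair. The sets were found from the data and are not labelled. The cause of these differences was not tested. With 3 pairs, changes near 0.5 on the log2 scale are often missed.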

Other observations

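Of the 367 called genes 254 were in none of the 39 lists, and those named here were chosen after their values were seen or by the size of their change. Among the falls were enzymes of mitochondrial acyl-CoA activation and glycine conjugation. Acsm5 had 5.65, 5.90 and 5.44 with TFMPP, against 7.16, 7.21 and 6.66 in DMSO, with no overlap (-1.35 ± 0.17; adjusted p = 0.000665 in limma). Acsm1 fell by 1.20 ± 0.13 and Glyat, the glycine acyltransferase, by 0.93 ± 0.22. Dpyd and Upb1, enzymes of pyrimidine breakdown, fell by 1.11 ± 0.17 and 1.14 ± 0.19. Dmgdh, the dimethylglycine dehydrogenase, fell by 1.12 ± 0.15 and Bhmt2, a homocysteine methyltransferase, by 1.30 ± 0.18, while Chdh, the choline dehydrogenase, stood at 0.14 ± 0.12 (adjusted p = 0.761 in limma). Tm4sf4, a tetraspanin-like membrane protein, had 8.77, 9.33 and 8.35 with TFMPP and 10.49, 10.58 and 10.11 in DMSO (-1.58 ± 0.17; adjusted p = 0.000182). Gpd1, the cytosolic glycerol 3-phosphate dehydrogenase, fell by 0.99 ± 0.10 and Lepr, the leptin receptor, by 0.98 ± 0.11. The largest falls also held Ttc36 (-1.54 ± 0.20), Urad of urate breakdown (-1.44 ± 0.29) and Hao2, a hydroxy acid oxidase (-1.33 ± 0.23). Smaller ones were Tkfc, which phosphorylates dihydroxyacetone (-1.23 ± 0.18), Hsd3b5 (-1.07 ± 0.15), the bicarbonate carrier Slc4a4 (-0.99 ± 0.15), Gamt of creatine synthesis (-0.99 ± 0.17), Hykk (-0.95 ± 0.14) and Fbxl17l1 (-0.87 ± 0.20). Glyat lost its call without each pair (adjusted p up to 0.277) and Upb1 without pair 1 (0.0647) or 2 (0.0818).

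Among the rises were genes of membrane traffic. Stx3, a syntaxin of apical membranes, had 8.33, 7.77 and 8.18 with TFMPP, against 7.01, 6.82 and 7.47 in DMSO (0.99 ± 0.16; adjusted p = 0.00384 in limma), and lost its call without pair 1 (0.075). Rab30, a small GTPase of the Golgi, rose by 0.93 ± 0.11, with changes close to each other although its level differed between pairs. Cnppd1 had 9.73, 9.29 and 9.91 with TFMPP and 8.77, 8.37 and 8.94 in DMSO (0.95 ± 0.11; adjusted p = 0.000332). Il1r2, the decoy receptor of interleukin 1, rose by 0.79 ± 0.11 and Aacs, which makes acetoacetyl-CoA for lipid synthesis, by 0.84 ± 0.20, a call lost without each pair (up to 0.340). Cables1 rose by 0.95 ± 0.16, Dpysl2 by 0.82 ± 0.10, the zinc carrier Slc39a10 by 0.72 ± 0.15, Rufy1 by 0.70 ± 0.12 and Lpcat1, a lysophosphatidylcholine acyltransferase, by 0.66 ± 0.14. Without a pair the adjusted p reached 0.168 for Urad, 0.0849 for Hao2, 0.466 for Fbxl17l1, 0.0884 for Gamt, 0.0908 for Cables1, 0.193 for Slc39a10, 0.0744 for Rufy1 and 0.282 for Lpcat1, while Ttc36, Tkfc, Hsd3b5, Slc4a4, Hykk and Dpysl2 were called without any one pair.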
